A study of Mus musculus with 6 samples.

Results

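A set of 9 genes of glucose uptake and metabolic glucose sensing was examined in taste cells of the mouse tongue, chosen by name from the 23361 genes of the authors' deposited table, and every one was found there. They were the facilitative transporter genes Slc2a1, Slc2a2, Slc2a3, Slc2a4, Slc2a8 and Slc2a9, the sodium-glucose cotransporter gene Slc5a1, and Abcc8 and Abcc9, which encode the sulfonylurea receptor subunits of ATP-sensitive potassium (KATP) channels. Isolated taste cells came from the 2 taste bud fields of the back and sides of the tongue, the circumvallate and foliate papillae (CV/Fol), of C57BL/6 mice, and RNA was sequenced from 3 libraries at 2 months and 3 libraries at 6 months of age. Each library pooled the cells of several mice, drawn by suction from the enzyme-treated epithelium, and the sample labels name no treatment or mutation. The younger age is 2 months in the sample labels, while the design text of the series names another in one place.

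Glucose enters most cells down its gradient through the GLUT proteins of the Slc2 family, and it enters some epithelia against its gradient with sodium through SGLT1, the product of Slc5a1. Inside the cell, the rise in ATP from glucose breakdown closes KATP channels, which couples metabolism to membrane voltage in pancreatic beta cells. In taste cells, this set of transporters and channels has been proposed as a way to detect sugars that works beside the sweet receptor of Tas1r2 and Tas1r3.

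Expression was given as FPKM, a count of sequenced fragments scaled by transcript length and by the size of the library, so levels of different genes can be set side by side. The authors' deposited table holds 1 FPKM value for each gene and age, the authors' value over the libraries of that age. No value per library entered this comparison. The p-values of the authors' own comparison were set aside, so no SD and no test are given here, and each difference is one between 2 numbers without their spread. Changes with age were expressed as the difference of log2(FPKM + 1), 6 months minus 2 months, a scale on which low genes show less than their true ratio. A fold of at least 1.5 on that scale served as the limit for naming a change. A gene was compared when its mean over the ages reached 1 FPKM and it was not listed at 0 at a single age, which left 12573 genes.

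The 9 genes fell into a steep ladder of levels. Slc5a1 and Slc2a1 were the only members over 10 FPKM. Together they made up 91.4% of the summed FPKM of the 9 genes at 2 months and 91.7% at 6 months. Slc2a8 and Slc2a4 had means between 1 and 10 FPKM. The other 5 members (Slc2a9, Abcc8, Slc2a3, Abcc9 and Slc2a2) stayed under 1 FPKM at both ages. A mean of at least 1 FPKM was thus reached by 4 of the 9 members, against 54.2% of all genes in the table. Fewer cells of a type and less RNA per cell cannot be told apart in such bulk samples, so a low value does not show how a gene was expressed in a particular taste cell.

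**Figure D1:**
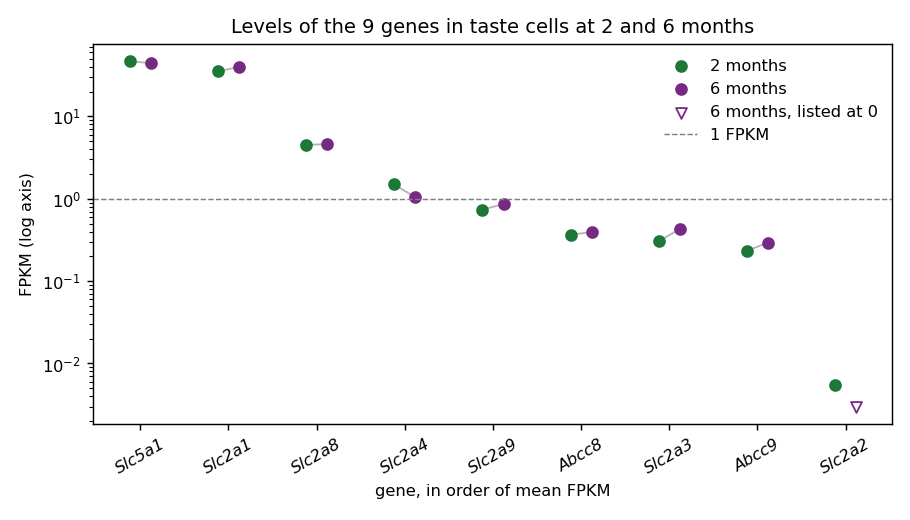
FPKM of the 9 genes on a log axis at 2 months (green) and 6 months (purple), in order of the mean of both ages, with 1 point for the authors' value at each age and a dashed line at 1 FPKM. The open triangle marks the 6 month value of Slc2a2, listed at 0, and is drawn at the foot of the axis. Slc5a1 and Slc2a1 stand at 35.2 to 46.7 FPKM, well above the other genes.

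Slc5a1, whose product SGLT1 carries glucose and galactose together with sodium, had the highest level of the 9 genes at both ages. Its value was 46.7 FPKM in the younger and 44.3 FPKM in the older mice. The 6 month value was thus slightly lower, by a log2 difference of -0.074, which lies between the lower and upper quartiles of all compared genes (-0.10 and 0.079). By its mean level, Slc5a1 ranked above 91.5% of all genes in the table. The gene lies on chromosome 5 of GRCm38 from 33104219 to 33162870 on the plus strand, and its annotated transcript has 15 exons.

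Slc2a1 encodes GLUT1, the transporter that supplies basal glucose uptake in many tissues and in proliferating epithelium. At 2 months it stood at 35.2 FPKM and at 6 months at 39.9 FPKM. The ratio was 1.13 and the log2 difference 0.18. By its mean level, Slc2a1 ranked above 89.6% of all genes. A difference of at least that size in either direction was listed for 21.8% of the compared genes. Slc2a1 lies on chromosome 4 from 119108711 to 119137983 on the plus strand. Slc5a1 stood 1.33 times as high as Slc2a1 at 2 months and 1.11 times as high at 6 months. The order of these neighbours was the same at both ages, but whether they differ beyond the spread of libraries cannot be judged from 1 value per age.

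The upstream sequences of the genes at the top and at the foot of this ladder are shown because their levels differ most. Of the 9 genes, 6 were matched by symbol to the RefSeq promoter table of build GRCm38.p6. The 250 bases before the start annotated by RefSeq are printed 5′ to 3′ on the strand of the gene, at chr5:33103969-33104218 for Slc5a1, chr4:119108495-119108744 for Slc2a1 and chr3:28697653-28697902 for Slc2a2. The GENCODE start of Slc2a1 lies further upstream, at 119108711, so the end of its window falls inside the gene as that annotation gives it. Capitals mark matches on either strand to the GC box (GGGCGG), the E box (CACGTG) or the CCAAT box (CCAAT), and TATAAA was searched as well.
Slc5a1: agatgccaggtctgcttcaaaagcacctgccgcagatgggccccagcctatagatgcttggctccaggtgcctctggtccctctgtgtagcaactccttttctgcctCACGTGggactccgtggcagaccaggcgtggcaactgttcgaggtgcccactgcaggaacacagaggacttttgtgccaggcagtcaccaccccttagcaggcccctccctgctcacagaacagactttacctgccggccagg
Slc2a1: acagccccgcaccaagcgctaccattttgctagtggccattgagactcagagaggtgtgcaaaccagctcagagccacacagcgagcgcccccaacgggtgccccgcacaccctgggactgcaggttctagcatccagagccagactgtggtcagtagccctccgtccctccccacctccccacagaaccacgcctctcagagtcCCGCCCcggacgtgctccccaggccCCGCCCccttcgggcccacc
Slc2a2: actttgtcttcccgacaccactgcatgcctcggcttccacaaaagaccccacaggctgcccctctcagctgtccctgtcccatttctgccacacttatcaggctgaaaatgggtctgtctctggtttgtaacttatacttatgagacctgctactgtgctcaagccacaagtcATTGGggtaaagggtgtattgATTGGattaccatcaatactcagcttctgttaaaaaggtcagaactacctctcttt

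The window of Slc5a1 held 1 E box, a motif found in 6.02% of all 32851 windows of the same length. The window of Slc2a1 held 2 GC boxes, a motif found in 32.7% of the windows. Slc2a2 had no GC box or E box there and 2 CCAAT boxes, which 33.8% of the windows held. TATAAA, held by 12.4% of the windows, was not among the letters of these 3 windows. The CG dinucleotide occurred 13 times in the window of Slc2a1, 6 times in that of Slc5a1 and 2 times in that of Slc2a2, and the median over all windows was 6. These matches describe the letters only, and binding was not measured.

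Slc2a8 encodes GLUT8, a hexose transporter that resides mostly on membranes inside the cell. Its values of 4.52 FPKM in the younger mice and 4.598 FPKM in the older mice were nearly equal, with a log2 difference of 0.021. A difference of at least that size was listed for 87.4% of the compared genes, so Slc2a8 sat close to the centre of all genes. The level of Slc2a1 was 7.79 times that of Slc2a8 at 2 months and 8.68 times at 6 months.

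Slc2a4 encodes GLUT4, the insulin-responsive transporter of skeletal muscle and fat. It showed the largest log2 difference in size among the 9 genes, with 1.496 FPKM in the younger and 1.04 FPKM in the older mice. The 2 month value was 1.44 times the 6 month value, and the log2 difference of -0.29 did not reach the limit. A difference of at least that size was listed for 8.22% of the compared genes. The level lay close to the minimum of 1 FPKM at both ages.

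Because Slc2a4 is known from muscle and fat, the markers of those tissues were read beside it. All 7 skeletal muscle markers that were compared had higher 6 month values, where 46.3% of all compared genes did. Their median log2 difference was 0.78, and their summed level went from 24.0 to 37.6 FPKM. Of the full list of 10, 5 were past the limit (Acta1, Ckm, Tnnt3, Tnnc2 and Mb), where 0.811% of all compared genes were at least 1.5-fold higher. Tnnc2, a troponin of fast muscle fibres, was at 2.14 FPKM in younger and 5.57 FPKM in older mice, and the oxygen carrier gene Mb was at 1.82 and 4.28 FPKM. Acta1 was at 1.98 and 4.15 FPKM, Ckm at 1.16 and 2.39 FPKM and Tnnt3 at 1.92 and 4.02 FPKM. The markers with the highest level, Tnni2 (11.2 and 11.9 FPKM) and Mylpf (3.76 and 5.25 FPKM), stayed under the limit. Slc2a4 thus differed between the ages in the opposite direction to the muscle markers. The adipocyte markers Adipoq and Plin1 were under 0.1 FPKM at both ages, and Fabp4, a lipid-binding protein of fat and of other cells, was at 0.692 and 3.48 FPKM. The part of muscle or fat RNA in the value of Slc2a4 was not tested.

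Slc2a9 encodes GLUT9, which is best known as a urate transporter. Its values were 0.736 FPKM in younger and 0.864 FPKM in older mice, just under the minimum for a comparison. Slc2a3 encodes GLUT3, the high-affinity transporter of neurons, and was at 0.305 and 0.430 FPKM. The 6 month value of Slc2a3 was 1.41 times the 2 month value, the largest ratio in that direction among the members, at a level under the minimum for a comparison. Slc2a3 and Abcc8 changed places in the order between the ages, the only members to do so.

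Slc2a2 encodes GLUT2, the low-affinity transporter of liver and pancreatic beta cells. It was at 0.00552 FPKM at 2 months and was listed at 0 at 6 months. The 2 month value was higher than only 0.719% of all values above 0 at that age. A listed 0 can also be a failed estimate in this table, since the lingual keratin gene Krt13 was listed at 0 at both ages and Krt4 at 7334 FPKM at 2 months and 0 at 6 months. No fold is therefore given for Slc2a2.

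The 6 facilitative members summed to 42.2 FPKM in younger and 46.8 FPKM in older mice. Slc2a1 made up 83.3% of that sum at 2 months and 85.2% at 6 months. Slc2a8 followed with 10.7% and 9.82%, and Slc2a4 with 3.54% and 2.22%. The other 6 listed genes of the family added 1.62 FPKM in all at 2 months and 1.496 FPKM at 6 months, so the share of Slc2a1 among all 12 was 80.2% and 82.6%. Most of that addition was Slc2a12, at 1.06 and 0.988 FPKM, while the fructose transporter gene Slc2a5 was at 0.0220 and 0.0503 FPKM. The facilitative uptake genes of these cells were therefore led by 1 gene at both ages.

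Slc5a1 had a companion of similar size among the 7 other listed sodium-sugar and sodium-inositol cotransporters. Slc5a9, which encodes SGLT4, a sodium-dependent carrier of mannose, fructose and related sugars, was at 27.7 and 25.04 FPKM at 2 and 6 months. Slc5a1 was 1.69 and 1.77 times as high as Slc5a9. Of the summed level of the 8 genes, 60.4% was Slc5a1 and 35.9% Slc5a9 at 2 months, and 60.9% and 34.4% at 6 months. Both genes had slightly lower values at 6 months, with log2 differences of -0.074 and -0.14. The inositol transporter gene Slc5a3 was at 2.04 and 2.54 FPKM, and the other 5, among them Slc5a2, the main glucose cotransporter of the kidney, were under 1 FPKM.

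**Figure D2:**
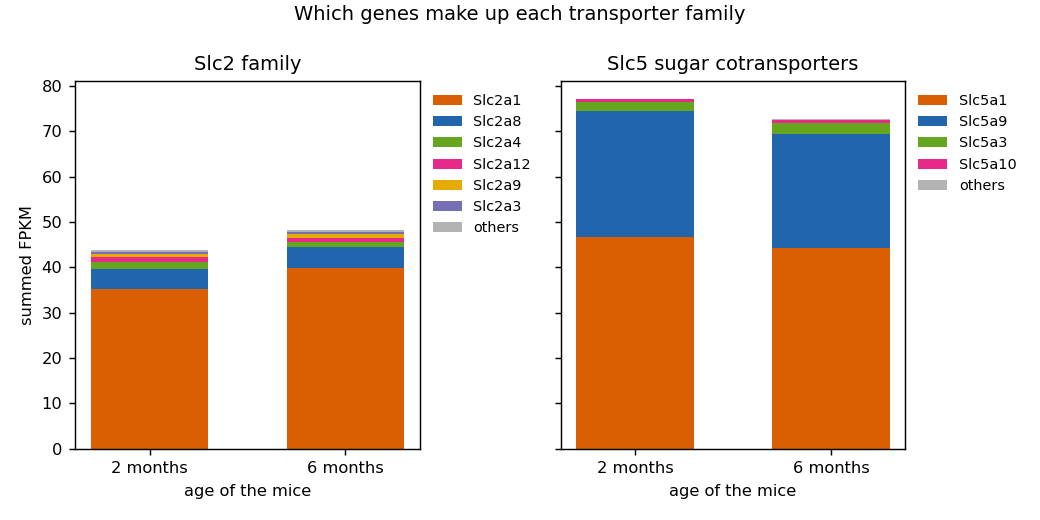
Summed FPKM of the 12 Slc2 genes (left) and the 8 Slc5 genes (right) at 2 and 6 months, each bar divided by gene and starting at 0. Slc2a1 takes 80.2% and 82.6% of the left bars, and Slc5a1 with Slc5a9 take nearly all of the right bars.

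The KATP channel genes were all weakly expressed. Abcc8, which encodes SUR1, was at 0.366 and 0.394 FPKM at 2 and 6 months. Abcc9, which encodes SUR2, was at 0.234 and 0.293 FPKM. The level of Abcc8 was 1.56 times that of Abcc9 at 2 months and 1.34 times at 6 months. Of the pore-forming partners, Kcnj11 was at 0.676 and 0.652 FPKM and Kcnj8 at 0.0321 and 0.0215 FPKM. All 4 subunit genes thus had means under 1 FPKM, a level that 54.2% of all genes in the table reached. The summed receptors (0.600 and 0.687 FPKM) were close in level to the summed pores (0.708 and 0.673 FPKM). Abcc8 and Abcc9 both had higher values at 6 months and Kcnj8 and Kcnj11 lower ones, in each case by less than 0.1 on the log2(FPKM + 1) scale. At such low levels that scale shows little of a ratio, so these small differences do not show that the ages were alike.

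For scale, the sweet receptor genes Tas1r2 and Tas1r3 were at 9.67 and 10.3 FPKM at 2 months and at 11.5 and 14.6 FPKM at 6 months. All 7 genes of the sweet receptor and its transduction path reached a mean of 1 FPKM, against 54.2% of all genes in the table. The highest were Gnat3 (84.7 and 79.9 FPKM) and Plcb2 (53.3 and 55.1 FPKM). All 5 type III taste cell markers reached that mean as well, led by Pkd2l1 (12.4 and 14.0 FPKM) and Snap25 (7.78 and 8.71 FPKM). Of the 3 type I markers, Entpd2 (66.1 and 57.7 FPKM) and Kcnj1 did, and Slc1a3 did not. The basal keratins Krt5 and Krt14 were at 2180 and 1287 FPKM at 2 months, so the pools also held RNA of genes that basal keratinocytes express strongly. Which of these cells gave the transcripts of the 9 genes was not measured.

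Across the 9 genes, 6 had a higher and 3 a lower value at 6 months. Of the 4 compared members 2 were higher, where 46.3% of all compared genes were. Of the 4 that could be compared, 0 reached a 1.5-fold difference in either direction, where 2.16% of all compared genes did. The higher values were those of Slc2a1, Slc2a3, Slc2a8, Slc2a9, Abcc8 and Abcc9, and the lower ones those of Slc5a1, Slc2a2 and Slc2a4. The median log2 difference over all compared genes was -0.012. A difference under the limit does not show that the ages were alike, since the spread between libraries was not measured here.

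**Figure D3:**
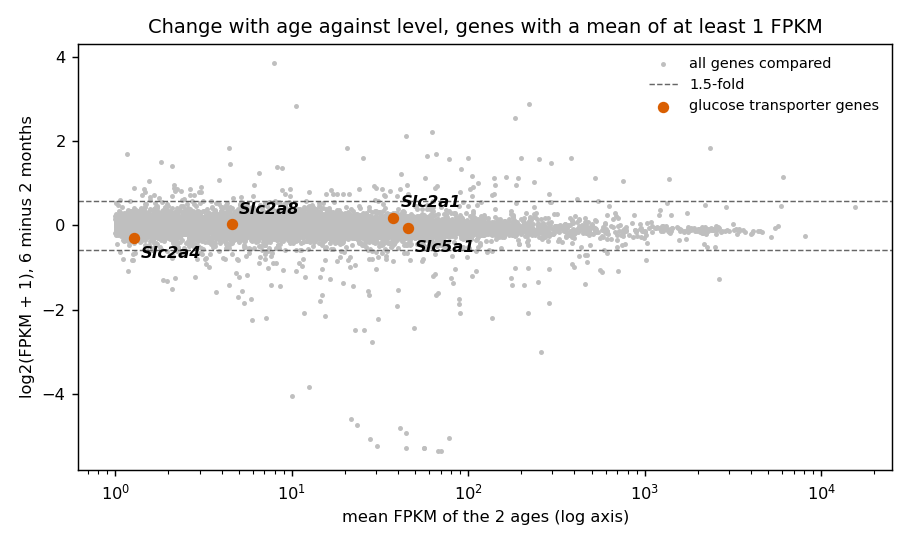
Difference of log2(FPKM + 1), 6 minus 2 months, against mean FPKM on a log axis for the 12573 compared genes (grey), with the 4 compared members in orange and dashed lines at 1.5-fold. The members lie between -0.29 and 0.18, inside the dashed lines.

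Glucose that has entered the cell is trapped by hexokinases. Of those listed, Hk1 and Hk2 had the highest levels, while Hk3 and Hkdc1 were under 1 FPKM at both ages. Hk1, the widely expressed hexokinase, was at 67.3 and 71.1 FPKM at 2 and 6 months, which was 1.91 and 1.78 times the level of Slc2a1. Hk2, which is induced in growing cells, was at 20.9 and 25.6 FPKM, a log2 difference of 0.28. G6pc3, which encodes a widely expressed glucose-6-phosphatase, was at 18.8 and 16.9 FPKM. Of the 7 listed genes of glucose phosphorylation and its reversal, 3 could be compared. Of these, 0 were past the limit, where 2.16% of all compared genes were. The glucose-6-phosphatase genes G6pc and G6pc2 were listed at 0 at both ages.

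The glycolytic enzymes had mostly higher values at 6 months. Of the 19 listed genes, 18 were matched and 16 compared, and 15 of the 16 were higher at 6 months, where 46.3% of all compared genes were. Their median log2 difference was 0.17, beside -0.012 for all compared genes. Of the 16, 0 reached the limit, where 2.16% of all compared genes did. The highest levels were those of Aldoa (446.9 and 469.5 FPKM) and Pkm (406.1 and 447.7 FPKM). Ldha, which makes lactate, was at 372.4 and 433.9 FPKM, Pgk1 at 168.4 and 191.7 FPKM, and Pfkl, a phosphofructokinase, at 34.8 and 40.2 FPKM. The exception was Ldhb, at 30.03 and 27.2 FPKM. The largest differences were 0.40 for Pgam2 and 0.33 for Pfkm, which are muscle isoforms, and the muscle markers were also higher at 6 months. Without Pfkm, Pgam2 and Eno3, which is also a muscle isoform, 12 of 13 were higher, with a median of 0.16. These isoforms were left out by a choice made after the data had been seen. How much muscle RNA added to the values of the other 13, Aldoa among them, was not tested. With both ages scaled to the same upper quartile, 15 of 16 were higher, where 52.3% of all compared genes were. The difference of 0.18 for Slc2a1 was close to the median of these enzymes, and neither was tested here.

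Of the compared genes of lactate transport and glucose-responsive transcription, 0 reached the limit, where 2.16% of all compared genes did. The largest log2 difference among them was 0.29, for Arrdc4. The lactate transporter genes Slc16a1 and Slc16a3 were at 7.39 and 4.07 FPKM at 2 months and at 7.56 and 4.29 FPKM at 6 months. Bsg, which encodes their chaperone basigin, was at 203.8 and 181.9 FPKM. Among 7 genes of glucose-responsive transcription, all 5 that were compared had higher values at 6 months, where 46.3% of all compared genes did and 52.3% after scaling to the same upper quartile. Their median was 0.086, and Hif1a, at 27.3 and 27.4 FPKM, hardly differed. The best known targets of this response are Txnip, at 135.3 and 143.7 FPKM, and Arrdc4, at 16.8 and 20.8 FPKM, and the factor gene Mlx was at 38.5 and 41.7 FPKM, while Mlxipl, which encodes the glucose-responsive factor ChREBP, was at 0.429 and 0.364 FPKM.

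**Figure D4:**
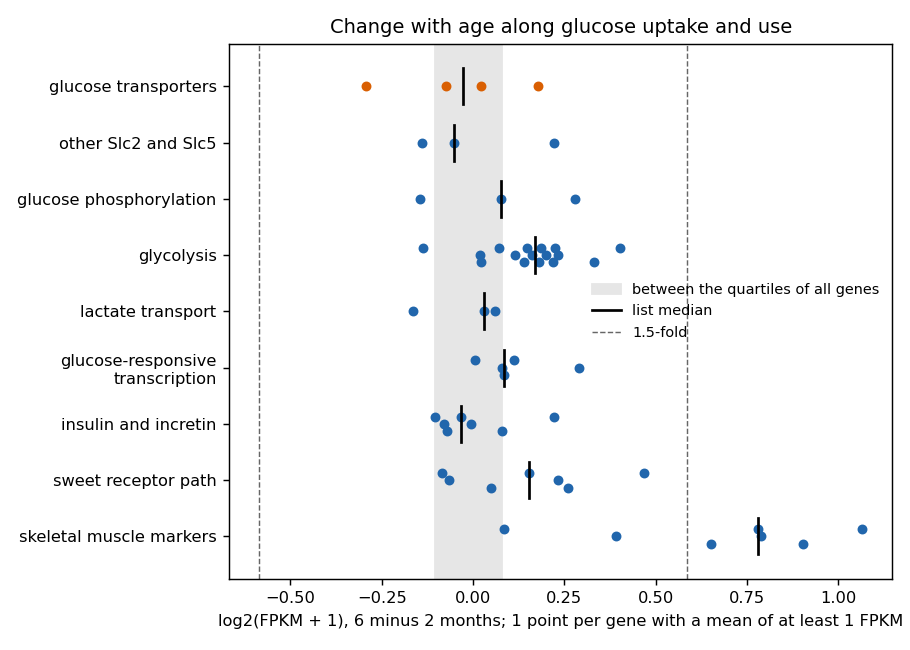
Difference of log2(FPKM + 1), 6 minus 2 months, for the genes of each list with a mean of at least 1 FPKM. Each point is a gene, black bars are list medians, the grey band runs between the quartiles of all compared genes (-0.10 to 0.079) and dashed lines mark 1.5-fold. Glycolysis has its median at 0.17 and the muscle markers at 0.78.

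Among the genes of all lists, the one nearest to Slc2a1 over the 2 ages on the log2(FPKM + 1) scale was Pfkl, at a Euclidean distance of 0.017, followed by the calcium channel gene Itpr3 at 0.076. Akt2, a kinase of insulin signalling, was nearest to Slc5a1 at 0.029, with Mlx next at 0.29. Tbc1d4 was nearest to Slc2a8 at 0.043, followed by Itgam at 0.078. Slc2a4 had no close neighbour, with Pdgfra at 0.25 and Slc2a12 at 0.28. Such distances rest on 2 values per gene and mostly reflect level.

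Several members share their locus with other annotated genes, and per the methods the reads were mapped with default settings, which do not use strand. In the GRCm38 annotation of GENCODE, antisense genes overlap Slc2a1 (Gm12867 and Gm12868), Slc2a2 (1700112D23Rik), Abcc8 (Gm45486) and Abcc9 (5330439B14Rik, listed at 0 at both ages). Processed pseudogenes lie within Slc5a1 (Gm15936 and 5033423K11Rik) and Slc2a3 (Gm4482). On the strand of the member lie also Gm45487 within Abcc8 and the microRNA gene Mir1957a within Slc2a1. The overlaps were taken over whole gene spans, introns included, and overlap of exons was not examined. Where exons overlap, reads from the antisense genes cannot be told apart from those of the member without strand. There, reads of Gm15936, Gm4482, Gm45487 and Mir1957a, which share the member's strand, could not be told apart by strand either. Whether such reads added to the value of a member was not tested. The genes Slc2a4, Slc2a8 and Slc2a9 have no overlapping gene in that annotation.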

How the data were processed

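RNA of isolated CV/Fol taste cells was sequenced by the authors from 6 libraries of 2 ages. Per the labels and methods, the authors mapped reads to GRCm38/mm10 with TopHat2 2.0.7, quantified RefSeq genes with Cufflinks 2.1.1 and compared ages with Cuffdiff. The deposited table holds 1 FPKM value per gene and age. Its group letters matched the sample titles. It also holds p-values of the authors' own comparison, which were not used. Mapping used default settings, which treat reads as unstranded. The library normalization is not given in the sources used here.

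Values were analysed as log2(FPKM + 1), with a minimum mean of 1 FPKM and a limit of 1.5-fold. The 79 genes listed at 0 at 1 age and over the minimum were left out, a choice made after the data had been seen. They were 76 microRNA and small nucleolar or Cajal body RNA genes, Krt4, Krt6a and Gm12238. Depth is unknown: low values multiplied by transcript length lay within 0.1 of a whole step for 22.1% (2 months) and 27.2% (6 months) of genes, where an even spread gives 20%. The members and lists were chosen with earlier results of these data known. Named genes are the 9 members, list genes past the limit, the highest of each list and the nearest neighbours, and the others were picked after their values were seen. Some genes of the original lists are not reported here. The code for the calls was run on simulated 2-fold changes in well expressed genes with little noise. The limit of 1.5-fold fixed that outcome in advance, so it does not bear on low genes or on the spread of libraries. Alternatives were a pseudocount of 0.1, no minimum, a minimum mean of 0.1 or 5 FPKM, a limit of 2-fold, scaling to the same upper quartile, and wider or narrower gene lists. All steps ran in Python 3.11.15 with pandas 2.3.3, numpy 2.4.6 and matplotlib 3.10.9.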

Additional observations from a re-analysis of the deposited data

How the results depend on the processing

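No paired analysis was possible because single libraries carry no values in the deposited table, and for the same reason no replicate was left out. The count of members past the limit was 0 in the analysis as reported and 0 under each of 6 alternatives, of which keeping genes listed at 0 at 1 age was added after the data had been seen. Not all of these could have changed the count. A limit of 2-fold and a minimum of 5 FPKM can only lower it, and keeping the genes listed at 0 left the same 4 members compared. With no minimum, 8 members were compared. Of those added, Slc2a3, Abcc8 and Abcc9, at most at 0.430 FPKM, could not reach the limit on the log2(FPKM + 1) scale whatever their ratio. A pseudocount of 0.1 moved the log2 differences of the 9 members by at most 0.26 (Slc2a3), scaling to the same upper quartile by at most 0.021, and neither changed a direction. The difference of Slc2a4 was -0.49 with the smaller pseudocount. Members at or above the minimum numbered 4 at 1 FPKM, 8 at 0.1 FPKM and 2 at 5 FPKM. Of the other listed genes, 10 were past the limit, 13 with the smaller pseudocount, 8 with the scaling, which ended the calls of Ivl and Dcn, 11 with genes listed at 0 kept, 10 with no minimum, and 4 with a minimum of 5 FPKM or a limit of 2-fold. The limit of 1.5-fold was passed by 271 of 12573 genes, by 380 with the smaller pseudocount and by 350 of 12652 with the genes listed at 0 kept. A limit of 2-fold was passed by 123.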

Other observations

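Genes that split sugars outside or at the surface of cells gave little signal. Of 6 listed genes, only the salivary amylase gene Amy1 had a mean of at least 1 FPKM, at 2.72 FPKM in younger and 1.73 FPKM in older mice. That mean was reached by 54.2% of all genes in the table. The disaccharidase genes Sis and Treh were listed at 0 at both ages, and Mgam and Lct were under 0.1 FPKM. The lingual lipase gene Lipf, a product of the salivary glands beneath the papillae, was at 83.7 and 14.7 FPKM. All 3 compared gland markers, Amy1 among them, had lower 6 month values, while 46.3% of all compared genes had higher ones. The part of gland RNA in the value of Amy1 was not tested.

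Of 13 genes of insulin and incretin signalling, 7 were compared, and 2 were higher and 5 lower at 6 months. Among all compared genes, 46.3% were higher. Of the 7, 0 were past the limit of 1.5-fold, where 2.16% of all compared genes were, so that count says little about the list. The kinase gene Akt2 had the highest level, at 45.97 and 44.9 FPKM, and the insulin receptor gene Insr was at 7.398 and 7.87 FPKM. Tbc1d4, whose product holds GLUT4 inside the cell until insulin acts, was at 4.46 and 4.44 FPKM. Pcsk1, a protease that processes peptide hormones, was at 4.65 and 5.59 FPKM, whereas Gcg, which encodes proglucagon, was at 0.0147 FPKM at 2 months and listed at 0 at 6 months. The incretin receptor genes Glp1r and Gipr were under 0.1 FPKM at both ages.

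Among the cell type markers, Krt10 (149.7 and 70.5 FPKM), Ivl (32.9 and 21.5 FPKM) and Dcn (42.0 and 27.3 FPKM) were past the limit with lower values at 6 months, as was Lipf, and Fabp4 and 5 muscle genes with higher ones. Of all compared genes, 1.34% were at least 1.5-fold lower and 0.811% at least 1.5-fold higher. With both ages scaled to the same upper quartile, Ivl (-0.57) and Dcn (-0.58) fell short of the limit on the log2 scale. Aqp5, a water channel of gland acini, was at 13.5 and 8.69 FPKM. In the fibroblast list, which holds Dcn, Pdgfra was at 1.10 and 1.05 FPKM. The collagen genes Col1a1, Col1a2 and Col3a1 of that list were at or under 0.144 FPKM at both ages. The mural cell markers Rgs5, Pdgfrb and Myh11, of cells in which Abcc9 and Kcnj8 are known to be expressed, were at or under 0.123 FPKM at both ages. Notch3 (31.9 and 37.4 FPKM) and Acta2 (2.27 and 2.30 FPKM) were the highest of that list. Its other genes were Cspg4 (0.781 and 1.41 FPKM) and Des (0.337 and 0.532 FPKM). The part of mural cell RNA in the value of Abcc9 was not tested. In the endothelial list, the 2 compared of 5 genes were Vwf (3.94 and 3.34 FPKM) and Tek (1.57 and 1.55 FPKM). Of these, 0 were past the limit, where 2.16% of all compared genes were. Of the 5 matched leukocyte markers 4 were compared and 0 were past the limit, beside that same 2.16% of all compared genes. The highest were Lyz2 (293.3 and 253.7 FPKM) and Cd68 (10.05 and 7.15 FPKM). Of the 7 erythroid markers 3 were matched, with Hba-a2 at 59.4 and 80.4 FPKM, Alas2 at 4.99 and 7.05 FPKM and Hbb-b2 listed at 0 at both ages.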
